A study of Mus musculus with 18 samples.

Results

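The 37 genes described here are interferon response genes, the transcripts that interferons switch on in most cell types. They were the rows of the deposited count table whose symbol was on a list of known interferon-stimulated genes, 37 of 52636 gene IDs. The rule reads symbols and no measured value, although the list was drawn up with earlier results of these data known. The list held nucleic acid sensors, transcription factors, the IFIT and OAS families, the ISG15 system, other antiviral effectors, interferon-inducible GTPases and a peptide transporter. All 37 passed the filter on low counts that left 13958 genes to be tested.

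Interferons are secreted proteins that warn cells of virus, bacteria or misplaced nucleic acid. Type I interferons bind the IFNAR receptor, whose kinases JAK1 and TYK2 phosphorylate STAT proteins, among them STAT2, which join IRF9 in a complex that binds the interferon-stimulated response element (ISRE) in target promoters. Interferon gamma acts through IFNGR and a different DNA element, GAS. In liver, hepatocytes and the resident macrophages (Kupffer cells) both express response genes, and Kupffer cells and other immune cells are a known source of type I interferon.

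Liver RNA from 18 mice in 6 groups of 3 was sequenced, all taken at ZT8, 8 hours into the light phase. Every mouse, KO and WT alike, was given tamoxifen (10 mg/mL in corn oil, into the peritoneum) on 5 days when 8 weeks old and carried the same strain label as the other mice of its line. H-KO and H-WT mice, 10 weeks old, came from a line with a conditional Hnf4a allele (Hnf4atm1.1Gonz) and a tamoxifen-activated Cre at the albumin gene (Albtm1(cre/ERT2)Mtz), so that Cre acts in hepatocytes. HNF4A is a nuclear receptor that maintains hepatocyte identity. BH-KO and BH-WT mice, also 10 weeks old, came from a line that carried in addition a conditional allele of Arntl (Arntltm1Weit), the gene of the circadian activator BMAL1. BH-HF-KO and BH-HF-WT mice belonged to the BH line too, were 45 weeks old and had eaten a high-fat diet for 35 weeks, from 10 weeks of age. The labels do not say how WT and KO mice of a line differed in genotype.

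Total counts ran from 6846471 to 9816124 per library, and levels below are CPM, each gene's count as a share of the TMM-scaled library total. Cre removes only part of each targeted gene, so whole-gene counts check the labels weakly. Hnf4a lay at 556 to 658 CPM in H-KO, against 581 to 889 in H-WT, and did not pass the test in any KO comparison. Arntl lay at 17.4 to 24.1 CPM in BH-KO, against 0.421 to 0.799 in BH-WT, but at 0.885 to 2.54 in the libraries labelled BH-HF-KO, against 1.03 to 2 in BH-HF-WT. The 2 groups labelled KO in the BH line thus differed in this check. Among H-WT libraries, replicate 3 had the Xist level of a female. BH-KO replicate 1 stood apart from replicates 2 and 3 (chi-square per degree of freedom of 137 and 144, against 16.2 between those 2).

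Per kilobase of exon, averaged over the 6 groups, the highest members were Bst2 at 84.9 CPM per kb and Iigp1 at 79.1. Bst2 encodes tetherin, which holds budding virus at the cell surface, and Iigp1 an immunity-related GTPase that attacks the vacuoles of intracellular parasites. Igtp followed at 17.3 and Stat2 at 12.4 CPM per kb. The lowest were Oas3 at 0.151, Mx1 at 0.537 and Oas1g at 0.559 CPM per kb. Several members lie together in the genome. The 6 OAS family members are on chromosome 5 and the 4 IFIT members on chromosome 19. Rsad2 and Cmpk2 are neighbours on chromosome 12, on opposite strands and 12751 bases apart (mm10, GENCODE M21).

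Promoters in RefSeq (GRCm38.p6), 250 bases before to 50 after each annotated start, were matched for 27 of the 37 members. The core of the ISRE, 2 copies of GAAA with any 2 bases between them, was searched on both strands, and overlapping matches were all counted. On the opposite strand of a gene it reads as 2 copies of TTTC. It was in the promoters of 16 of the 27 members (59.3%), against 3.99% of all 27025 gene symbols with a promoter, counted in the same way. The GAS core TTCNNNGAA was in those of 5 of the 27 (18.5%), against 9.55% of all symbols. A match is a description of these letters and not a measured binding site.

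The stretches around the upstream ISRE matches are shown because 14 of the 27 members matched share this feature upstream of the start, while the other 10 members were not searched. Each is written 5′ to 3′ on the strand of its gene, with the matched bases in capitals. Isg15, which encodes a ubiquitin-like modifier, had 3 overlapping matches at chr4:156200859-156200912 (minus strand). Ifit1, whose protein binds viral RNA, had 2 at chr19:34640769-34640829 (plus strand). Ifit3 at chr19:34583357-34583432 and Ifit3b at chr19:34607753-34607828 (both plus strand) had identical letters over 76 bases, and 75.0% identity over 268 aligned promoter bases.
Isg15: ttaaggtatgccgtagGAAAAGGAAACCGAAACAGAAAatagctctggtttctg
Ifit1: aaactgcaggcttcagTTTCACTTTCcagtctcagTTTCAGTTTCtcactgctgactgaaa
Ifit3: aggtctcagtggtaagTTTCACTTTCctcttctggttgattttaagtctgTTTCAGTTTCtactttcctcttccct
Ifit3b: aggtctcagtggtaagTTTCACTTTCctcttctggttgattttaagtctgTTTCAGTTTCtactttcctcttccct

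In the OAS family, several of whose members make the 2-5A signal that activates RNase L, the matches of Oas1a at chr5:120907526-120907561 and Oas1g at chr5:120887614-120887647 (both minus strand) were identical and lay just before the start. Oas3 had 1 match at chr5:120777709-120777750 (minus strand). These paralogs share sequence in their transcripts too, as do Ifit3 and Ifit3b, so reads could be split between them and their counts are uncertain.
Oas1a: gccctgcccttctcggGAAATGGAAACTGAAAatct
Oas1g: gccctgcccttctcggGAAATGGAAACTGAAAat
Oas3: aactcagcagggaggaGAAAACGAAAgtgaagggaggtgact

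Among the other effectors and the transcription factors, upstream matches were found in Rsad2, at chr12:26456547-26456588 (minus strand), in Bst2, at chr8:71537571-71537618 (minus strand), and in Stat2, at chr10:128270260-128270301 (plus strand). The match in Stat2 was the farthest from a start.
Rsad2: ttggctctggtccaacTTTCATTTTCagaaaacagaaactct
Bst2: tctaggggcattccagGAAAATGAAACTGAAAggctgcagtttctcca
Stat2: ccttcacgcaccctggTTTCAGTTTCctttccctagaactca

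The GTPase genes Gbp2 at chr3:142620588-142620629, Gbp3 at chr3:142559983-142560030 and Igtp at chr11:58199506-58199547 (all plus strand), and Irgm1 at chr11:48871421-48871466 (minus strand), also held matches. Ifih1 and Ddx58 held theirs after the start.
Gbp2: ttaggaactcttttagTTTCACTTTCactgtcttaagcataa
Gbp3: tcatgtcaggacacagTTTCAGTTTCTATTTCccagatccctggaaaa
Igtp: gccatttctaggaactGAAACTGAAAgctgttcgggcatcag
Irgm1: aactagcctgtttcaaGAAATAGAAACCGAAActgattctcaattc

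**Figure D1:**
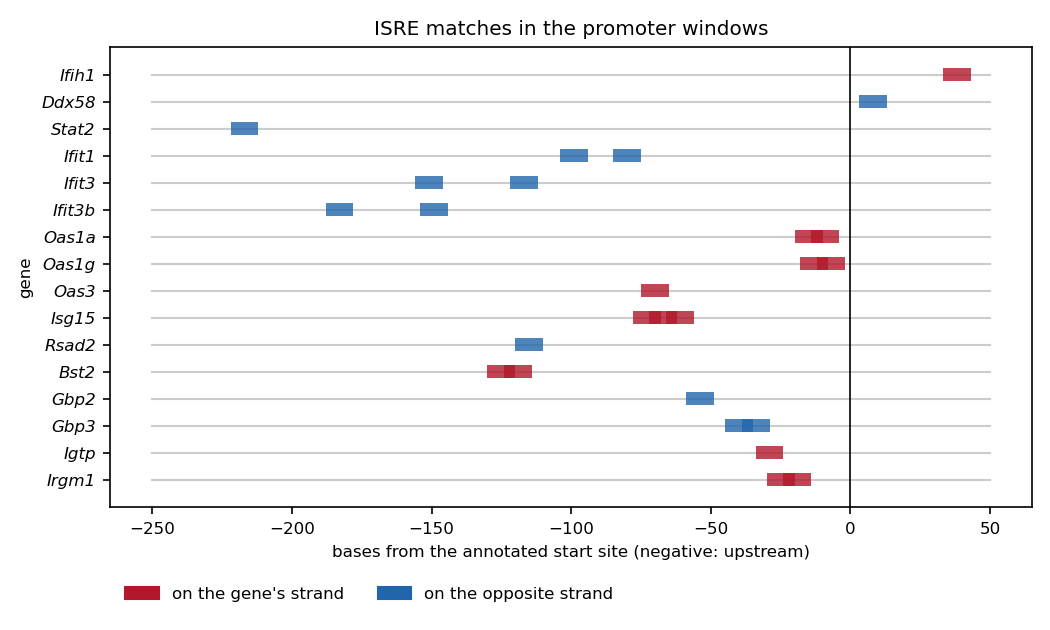
Positions of the ISRE core in the promoters of the 16 members that hold it, in bases from the annotated start (x axis, negative upstream); each grey line is 1 promoter and each block 1 match, red on the gene's strand and blue on the opposite strand. Of the 16 genes, 14 had their matches upstream of the start, and those of Oas1a, Oas1g, Irgm1 and Igtp lay closest to it.

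**Figure D2:**
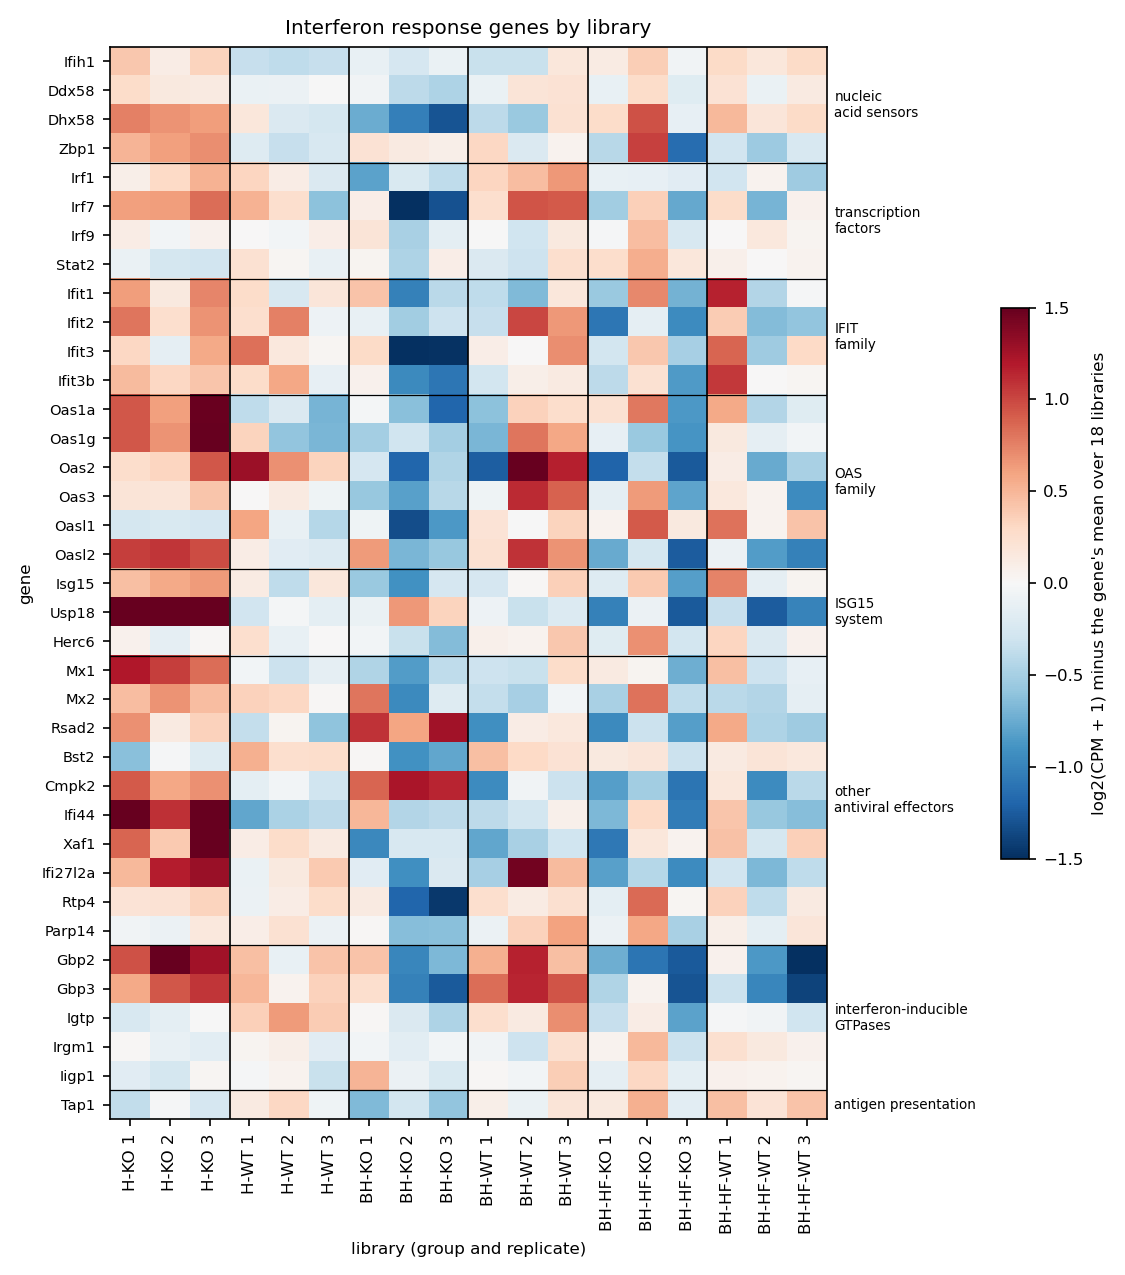
Level of each of the 37 members (rows, grouped by role) in each of the 18 libraries (columns), as log2(CPM + 1) minus the gene's mean over all libraries; the colours stop at 1.5 in both directions. Usp18, Ifi44, Oas1a and Mx1 are red in all 3 H-KO libraries, to differing depths, and BH-KO replicates 2 and 3 are blue in most rows.

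H-KO livers were set against H-WT livers, the comparison labelled as a knockout in the Hnf4a line, in which Hnf4a counts overlapped between the groups. A subset rose, led by the interferon-induced Ifi44, the OAS genes Oas1g and Oas1a, the ISG15 protease Usp18 and the antiviral GTPase Mx1, while the transcription factors and the IFIT family did not pass. In edgeR's quasi-likelihood test, with p-values adjusted by Benjamini-Hochberg, 9 of 37 members rose, 2 fell and 26 did not pass, a share called of 29.7%. Among all genes tested 34.9% were called, 15.8% as higher and 19.1% as lower. The median log2 fold change of the members was 0.45, against 0.00 over all genes tested, and 15 members had an unadjusted p under 0.05 (44.3% of all genes). The H-KO libraries lay wholly above the H-WT libraries for 20 members (26.1% of all genes) and wholly below for 2 (25.9%).

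Among the sensors, which detect foreign RNA and DNA, Ifih1 (MDA5, a receptor for long double-stranded RNA) had 71.8, 58.2 and 67.9 CPM in H-KO, against 42.2, 41.0 and 42.2 in H-WT. The groups did not overlap, and it rose (log2 fold change 0.66 ± 0.14 SE, adjusted p = 0.00168). Dhx58 (LGP2), a relative that tunes MDA5, had 15.3, 14.4 and 13.8 CPM in H-KO, against 9.84, 7.28 and 7 in H-WT, and rose (0.85 ± 0.28, adjusted p = 0.0258). Ddx58 (RIG-I) averaged 44.0 ± 2.53 CPM in H-KO, against 36.8 ± 1.38 in H-WT (SD, n = 3 each), and Zbp1, a sensor of Z-form nucleic acid, 24.5 ± 1.72 CPM in H-KO, against 13 ± 0.747 in H-WT. Neither passed, although the groups did not overlap for either gene.

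In the OAS family, Oas1a had 6.42, 4.97 and 9.84 CPM in H-KO, against 1.99, 2.35 and 1.40 in H-WT (1.88 ± 0.56, adjusted p = 0.0170). Oas1g had 2.91, 2.27 and 5.07 CPM in H-KO, against 1.60, 0.370 and 0.280 in H-WT (2.17 ± 0.68, adjusted p = 0.0206), a gene with 2 to 12 counts in each H-WT library. Both rose, with replicate 3 the highest of the H-KO libraries and every one above every H-WT library. Oasl2, an OAS-like gene, had 13.2, 13.6 and 12.7 CPM in H-KO, against 6.52, 5.19 and 5.04 in H-WT, and rose (1.24 ± 0.40, adjusted p = 0.0238). The other 3 did not pass. Oas2 averaged 4.81 ± 1.57 CPM in H-KO, against 6.09 ± 2.42 in H-WT, Oas3 1.32 ± 0.21 in H-KO, against 0.961 ± 0.138 in H-WT, and Oasl1 6.18 ± 0.0806 in H-KO, against 8.02 ± 3.39 in H-WT.

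Usp18 removes ISG15 from proteins and blocks the IFNAR receptor, which makes it a brake on the response as well as a target of it. It had 49.8, 49.1 and 53.1 CPM in H-KO, against 11.8, 14.4 and 13.2 in H-WT. The 3 H-KO libraries were close to each other and far above the rest (1.94 ± 0.29, adjusted p = 0.000166). Its substrate Isg15 had 9.13, 9.94 and 10.5 CPM in H-KO, against 7.05, 4.69 and 7.28 in H-WT, with no overlap but no pass (0.64 ± 0.33, adjusted p = 0.153). Herc6, the main ISG15 ligase in mice, averaged 17.4 ± 1.3 CPM in H-KO, against 18.3 ± 2.55 in H-WT.

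Ifi44 showed the largest rise of any member, with 17.8, 10.5 and 18.5 CPM in H-KO, against 2.13, 2.84 and 3.08 in H-WT (2.53 ± 0.46, adjusted p = 0.000677). Mx1, a GTPase that traps viral nucleoproteins, had 5.42, 4.76 and 4 CPM in H-KO, against 1.73, 1.23 and 1.54 in H-WT (1.65 ± 0.41, adjusted p = 0.00593). Both rose in every H-KO library. Cmpk2, a mitochondrial nucleotide kinase, had 10.8, 8.32 and 9.06 CPM in H-KO, against 4.65, 5.06 and 4.06 in H-WT, and rose (1.03 ± 0.31, adjusted p = 0.0175). Its neighbour Rsad2 (viperin), which makes a chain-terminating nucleotide, averaged 16.3 ± 3.45 CPM in H-KO, against 9.74 ± 2.50 in H-WT, and did not pass. Bst2 went the other way, with 47.5, 73.3 and 64.4 CPM in H-KO, against 108, 88.0 and 89.2 in H-WT, and fell (-0.62 ± 0.21, adjusted p = 0.0333).

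The remaining effectors, Mx2 (annotated as a polymorphic pseudogene), Xaf1, Ifi27l2a, Rtp4 and Parp14, did not pass. Xaf1, a pro-apoptotic factor, came nearest, with 25.8 ± 10.9 CPM in H-KO, against 14 ± 0.946 in H-WT (adjusted p = 0.0545). Of the GTPases, Igtp (Irgm3) had 28.6, 30.6 and 33.7 CPM in H-KO, against 43.7, 53.5 and 44.4 in H-WT, and fell (-0.61 ± 0.20, adjusted p = 0.0282). Gbp2, a guanylate-binding protein, had 23.2, 35.1 and 28.8 CPM in H-KO, against 16, 10.5 and 15.7 in H-WT, with no overlap but no pass (1.05 ± 0.41, adjusted p = 0.0592). Gbp3, Irgm1, Iigp1 and the peptide transporter Tap1 did not pass either.

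None of the 4 transcription factors passed. Irf7, the master regulator of type I interferon genes, had 43.4, 43.6 and 50.4 CPM in H-KO, against 40.6, 33.3 and 17.8 in H-WT (0.58 ± 0.47, adjusted p = 0.366). Irf1 averaged 43.3 ± 6.55 CPM in H-KO, against 37 ± 6.96 in H-WT, and Irf9 38.1 ± 2.12 in H-KO, against 37.4 ± 1.89 in H-WT. Stat2 averaged 61.9 ± 4.53 CPM in H-KO, against 75.0 ± 9.01 in H-WT. The 4 IFIT genes had log2 fold changes from -0.11 to 0.47, and none passed.

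The calls in H-KO differed in how far they rested on single libraries. Mx1, Ifih1, Ifi44 and Usp18 passed with each of the 6 libraries left out in turn. Once H-WT replicate 3, with its Xist level of a female, was left out, 5 members passed and the calls of Dhx58, Cmpk2, Oasl2, Bst2, Oas1a and Oas1g were lost. Without both H-WT replicate 3 and BH-KO replicate 1, however, 10 members passed, 8 as higher and 2 as lower. That fit was chosen after the data were seen. With 1 library left out, the count was 6 without H-KO replicate 1, 9 without H-KO replicate 2 and 7 without H-KO replicate 3. It was 10 without H-WT replicate 1 and 7 without H-WT replicate 2. A fit of the H-KO and H-WT libraries alone called 18. With upper-quartile scaling, which moved the median of all genes by 0.15 on the log2 scale, 13 rose and none fell, so the falls of Bst2 and Igtp depend on the scaling.

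Genes that act upstream of the members are set here against the 34.9% of all genes called in H-KO. Of 21 interferon genes, none passed the filter, and their sum was at most 0.585 CPM in any library. Of 6 receptor chains, 1 rose and none fell in H-KO. That one was Ifnlr1, the chain specific to type III interferon, at 2.21, 2.49 and 1.66 CPM in H-KO, against 0.266, 0 and 0.280 in H-WT (3.47 ± 0.70, adjusted p = 0.00142). The H-WT values all lie under the 0.306 to 0.438 CPM that a count of 0 allows, so the size of this rise is uncertain. Ifnar1 averaged lower without passing (-0.41 ± 0.16, adjusted p = 0.0562), and Ifnar2, Ifngr1 and Ifngr2 did not pass.

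Of 9 kinases, STATs and interferon regulatory factors outside the member list, 3 fell in H-KO and none rose. Irf3, which induces interferon beta after RNA sensing, had 33.0, 34.4 and 35.9 CPM in H-KO, against 50.9, 48.3 and 60.0 in H-WT (-0.62 ± 0.11, adjusted p = 0.000585). Irf5 fell by 1.93 on the log2 scale (SE 0.53, adjusted p = 0.0110). Among 11 tested adaptors and kinases of sensing, 1 rose and 2 fell. Tlr3, the endosomal receptor for double-stranded RNA, rose (0.81 ± 0.22, adjusted p = 0.00957). Mavs, the mitochondrial adaptor through which RIG-I and MDA5 signal, had 57.5, 50.5 and 53.6 CPM in H-KO, against 81.2, 92.3 and 89.8 in H-WT (-0.70 ± 0.10, adjusted p = 9.04e-05). Trim25, a ubiquitin ligase of RIG-I, fell as well (-0.39 ± 0.10, adjusted p = 0.00706). In neither list was the share called, in both directions together, above the 34.9% of all genes.

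Of 13 tested negative regulators, 1 rose and 2 fell in H-KO. Pias3 rose (0.62 ± 0.22, adjusted p = 0.0365), and Rnf125, a ubiquitin ligase that marks RIG-I for degradation, fell (-1.21 ± 0.35, adjusted p = 0.0143), as did Irf2bp2 (-0.61 ± 0.19, adjusted p = 0.0215). Of 16 MHC class I and immunoproteasome genes, 3 rose, among them Nlrc5, the transactivator of class I genes (0.75 ± 0.24, adjusted p = 0.0245), and the class I heavy chain H2-D1 (0.55 ± 0.18, adjusted p = 0.0282). Of 49 other interferon-stimulated genes tested, 3 rose and 3 fell, with a median log2 fold change of -0.03. Uba7, the enzyme that activates ISG15, rose (1.06 ± 0.25, adjusted p = 0.00443), and so did Samd9l (0.94 ± 0.23, adjusted p = 0.00524). Cxcl11, a chemokine for T cells, fell (-3.48 ± 0.71, adjusted p = 0.00145), as did Gbp10 (-1.74 ± 0.62, adjusted p = 0.0423). The negative regulators, the class I genes and the other response genes each had a smaller share called than the 34.9% of all genes.

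In bulk liver, fewer cells of a type and less RNA per cell cannot be told apart. None of 13 Kupffer cell and macrophage markers passed in H-KO, with a summed level of 184 to 290 CPM in H-KO, against 84.7 to 625 in H-WT, and no marker was at 0 in either group. Of 5 tested cholangiocyte markers, 3 rose (15.8% of all genes), with a sum of 110 to 171 CPM in H-KO, against 33.2 to 58.8 in H-WT. The sum of 10 hepatocyte markers was 32713 to 47547 CPM in H-KO, against 102731 to 108239 in H-WT, and 4 of them fell (19.1% of all genes). The part of these shifts in the members' changes was not tested.

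**Figure D3:**
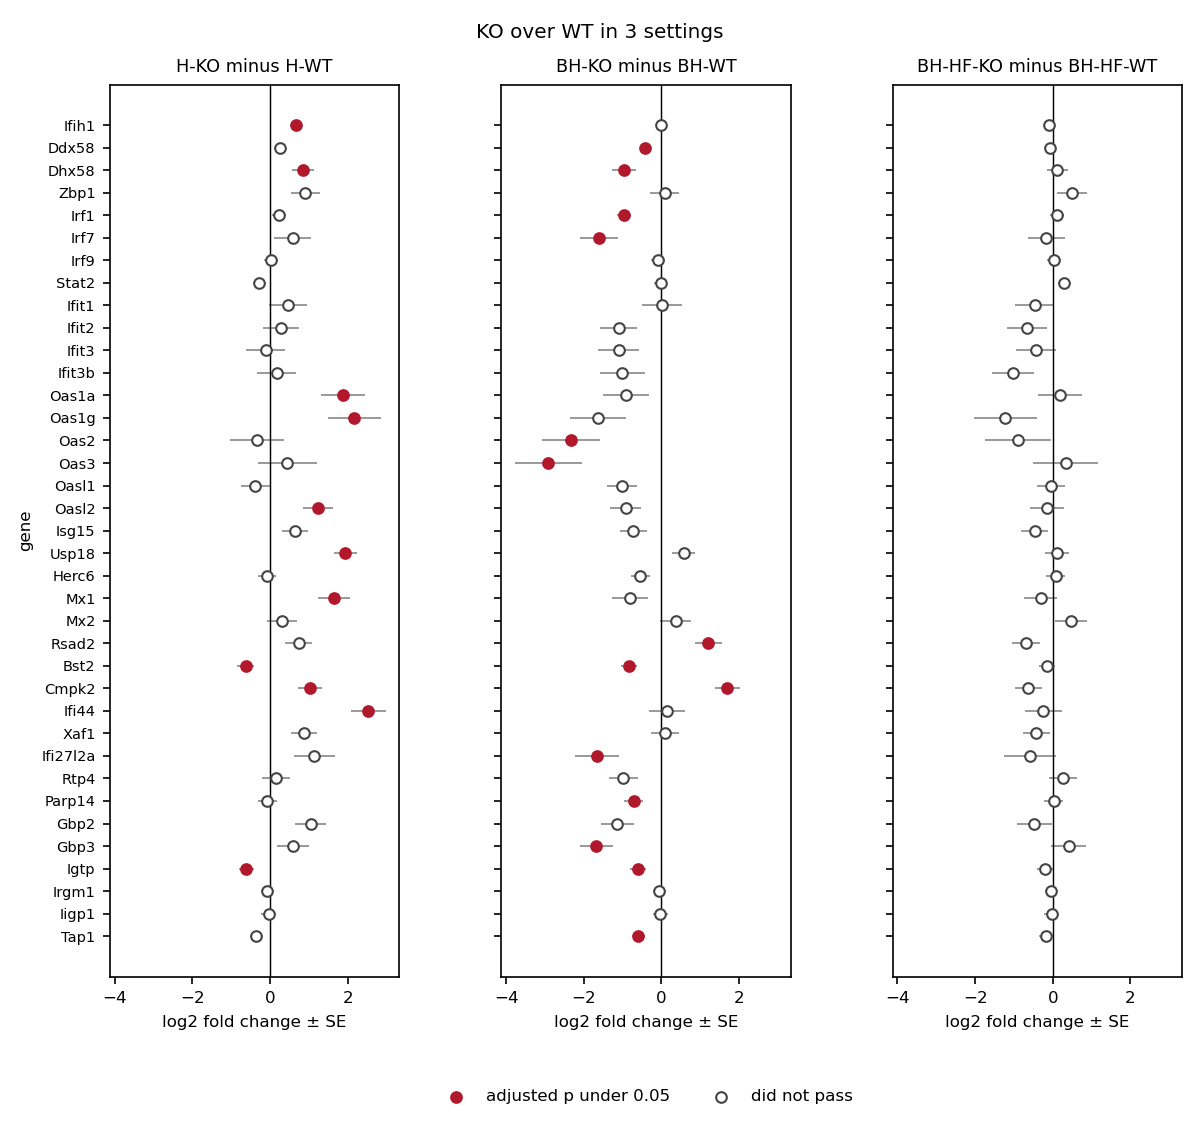
Log2 fold change ± SE of KO over WT (x axis) for each of the 37 members (rows) in H, BH and BH-HF; filled points had an adjusted p under 0.05 by edgeR's quasi-likelihood test. In H most filled points lie right of 0 (9 of 11), in BH most lie left of it (12 of 14), and BH-HF has none.

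In BH-KO livers, which carried the conditional alleles of both Hnf4a and Arntl, most members that passed fell. Oas3, Oas2, Gbp3, Ifi27l2a and Irf7 showed the largest falls, and the neighbouring genes Rsad2 and Cmpk2 were the members that rose. In total 2 members rose, 12 fell and 23 did not pass, a share called of 37.8%, against 28.6% of all genes tested (14.3% as higher and 14.3% as lower). The median log2 fold change was -0.72, against 0.03 over all genes tested, and 21 members had an unadjusted p under 0.05 (41.2% of all genes). The BH-KO libraries lay wholly below the BH-WT libraries for 12 members (16.8% of all genes) and wholly above for 2 (18% of all genes).

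Irf7 had 29.9, 6.94 and 10.7 CPM in BH-KO, against 33.4, 54.5 and 53.4 in BH-WT. The groups did not overlap, but BH-KO replicate 1 lay close to BH-WT replicate 1 (-1.61 ± 0.49, adjusted p = 0.0247). Without BH-KO replicate 1 the log2 fold change of Irf7 was -2.41. Irf1, a factor of both interferon responses and of antigen presentation, had 19.5, 29.6 and 26.4 CPM in BH-KO, against 43.8, 48.2 and 55.0 in BH-WT, and fell with replicate 1 the lowest (-0.95 ± 0.18, adjusted p = 0.00154). Irf9 averaged 33.9 ± 8.28 CPM in BH-KO, against 35.9 ± 5.56 in BH-WT, and Stat2 67.9 ± 13.8 in BH-KO, against 68.9 ± 15.2 in BH-WT. Neither passed.

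Rsad2 had 26.6, 18.6 and 30.1 CPM in BH-KO, against 5.89, 13.1 and 13.6 in BH-WT, and rose (1.21 ± 0.35, adjusted p = 0.0191). Cmpk2 had 10.4, 13.6 and 12.8 CPM in BH-KO, against 2.24, 5.03 and 4 in BH-WT, and rose (1.70 ± 0.32, adjusted p = 0.00137). Every BH-KO library was above every BH-WT library for both genes. Bst2 had 75.0, 39.1 and 42.7 CPM in BH-KO, against 102, 91.1 and 86.0 in BH-WT, and fell (-0.84 ± 0.22, adjusted p = 0.0103). Ifi27l2a, which encodes a small interferon-induced protein, had 1.49, 0.475 and 1.41 CPM in BH-KO, against 0.982, 6.62 and 2.88 in BH-WT. It fell by the test (-1.66 ± 0.57, adjusted p = 0.0392) although the groups overlapped, and BH-WT replicate 2 alone held 54 counts. Rtp4, a receptor-transporting protein, had 16.5, 5.99 and 4.85 CPM in BH-KO, against 18.1, 16.4 and 17.9 in BH-WT, and did not pass (adjusted p = 0.0602). Ifi44, Mx1, Mx2 and Xaf1 did not pass either.

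The sensors Dhx58 and Ddx58 fell. Dhx58 had 4.75, 3.71 and 2.91 CPM in BH-KO, against 6.31, 5.52 and 10.2 in BH-WT (-0.96 ± 0.30, adjusted p = 0.0257). Ddx58 had 37, 29.1 and 27.8 CPM in BH-KO, against 35.9, 44.2 and 45.1 in BH-WT (-0.42 ± 0.14, adjusted p = 0.0364). The groups overlapped for Ddx58 through BH-WT replicate 1 and did not for Dhx58. Ifih1 averaged 48.4 ± 2.74 CPM in BH-KO, against 48.6 ± 10.4 in BH-WT, and Zbp1 17.5 ± 0.85 in BH-KO, against 16.5 ± 3.22 in BH-WT.

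Oas3 had 0.297, 0.0951 and 0.441 CPM in BH-KO, against 0.842, 3.19 and 2.56 in BH-WT, from 1 to 5 counts per BH-KO library and 6 to 26 per BH-WT library (-2.92 ± 0.86, adjusted p = 0.0204). Oas2 had 2.38, 0.761 and 1.94 CPM in BH-KO, against 0.702, 16.2 and 7.99 in BH-WT (-2.32 ± 0.75, adjusted p = 0.0319). For Oas3 the groups did not overlap, while for Oas2 the lowest library of all 6 was BH-WT replicate 1. The other 4 OAS genes and the 4 IFIT genes did not pass. Ifit3 had 15.3, 3.33 and 3.79 CPM in BH-KO, against 13.3, 12.4 and 20.6 in BH-WT, with BH-KO replicate 1 apart from the other 2 in the same way as for Irf7. The ISG15 system did not pass. Usp18 averaged 18.8 ± 5.06 CPM in BH-KO, against 12.7 ± 1.19 in BH-WT (0.57 ± 0.29, adjusted p = 0.144), and Isg15 4.05 ± 1.13 in BH-KO, against 6.72 ± 1.65 in BH-WT.

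Gbp3 had 11.9, 4.37 and 3.53 CPM in BH-KO, against 18.4, 22.9 and 19.8 in BH-WT, and fell with no overlap (-1.68 ± 0.43, adjusted p = 0.0104). Gbp2 averaged 9.29 ± 5.64 CPM in BH-KO, against 19.9 ± 5.93 in BH-WT, and did not pass (adjusted p = 0.0554). Igtp fell by 0.61 on the log2 scale (SE 0.20, adjusted p = 0.0356). Tap1, which carries peptides to class I molecules, had 16, 21.2 and 16.8 CPM in BH-KO, against 27.8, 24.1 and 29.9 in BH-WT (-0.59 ± 0.17, adjusted p = 0.0201). Parp14, an ADP-ribosyltransferase, fell by 0.72 on the log2 scale (SE 0.25, adjusted p = 0.0417), with overlapping groups. Irgm1 averaged 58.1 ± 2.6 CPM in BH-KO, against 60.4 ± 11.7 in BH-WT, and Iigp1 489 ± 139 in BH-KO, against 497 ± 78.6 in BH-WT. Both differences were within the spread between libraries.

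Irf1 and Cmpk2 passed with each of the 6 libraries left out in turn. All 14 calls were kept without BH-KO replicate 1, where 21 members passed, 2 as higher and 19 as lower. The count was 4 without BH-KO replicate 2 (Irf1, Cmpk2, Rsad2 and Tap1), 3 without BH-KO replicate 3 (Irf1, Cmpk2 and Oas3), 8 without BH-WT replicate 2 and 5 without BH-WT replicate 3. A fit of the BH-KO and BH-WT libraries alone called 2, 1 in each direction. With upper-quartile scaling 2 rose and 9 fell, and the falls of Parp14, Ddx58 and Igtp were lost.

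**Figure D4:**
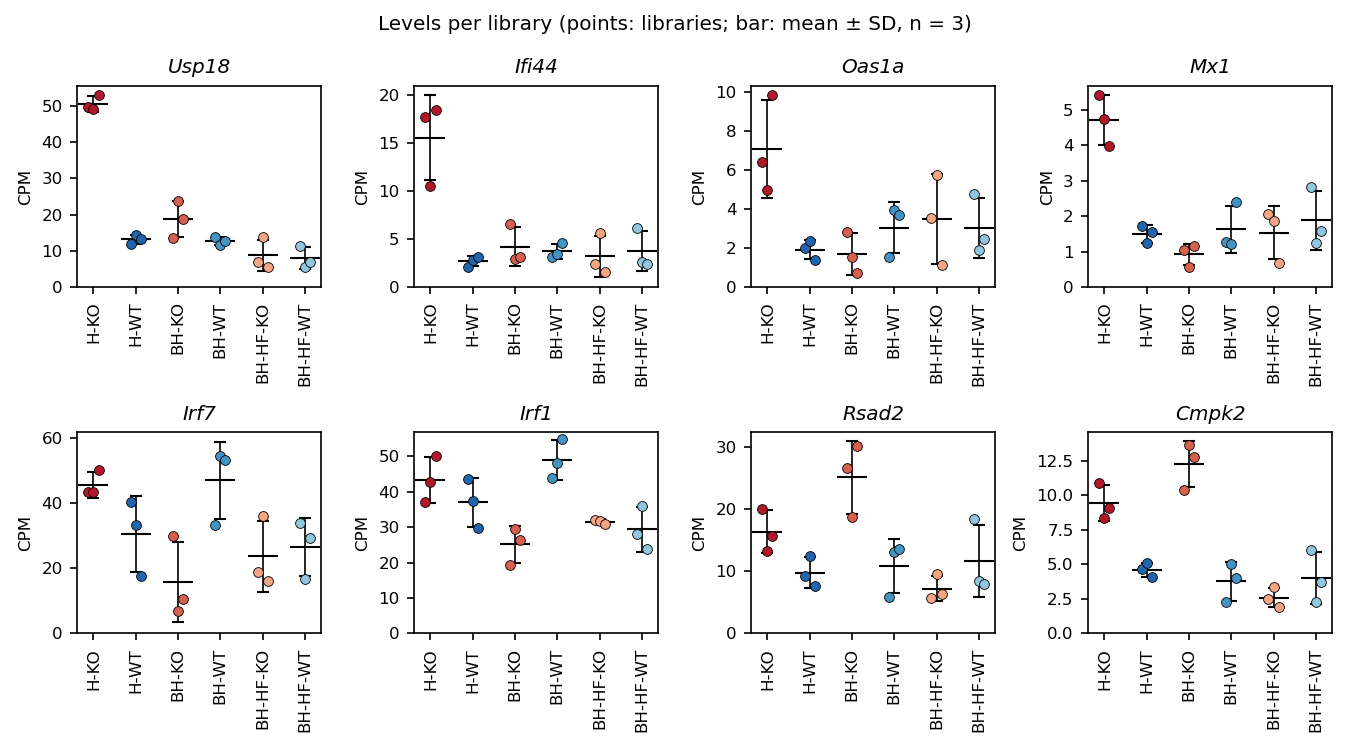
CPM in each library (points) of 8 members in the 6 groups, with the mean and SD of 3 libraries (bars). Usp18, Ifi44, Oas1a and Mx1 (upper row) are highest in H-KO, Irf7 and Irf1 are lowest in BH-KO, and Rsad2 and Cmpk2 are highest there, at means of 25.1 and 12.3 CPM.

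The upstream genes in BH-KO are set here against the 14.3% of all genes called lower and the 14.3% called higher. Those that passed fell, with exceptions among the negative regulators and the other response genes. The shares called were 16.7% of the receptor chains and 15.4% of the negative regulators, both under the 28.6% of all genes. Of 6 receptor chains, Ifnar1 fell, with 40.7, 24.1 and 26.6 CPM in BH-KO, against 45.9, 51.4 and 42.4 in BH-WT (-0.62 ± 0.16, adjusted p = 0.0101), and none rose. Ifngr1 (adjusted p = 0.0599), Ifngr2 (adjusted p = 0.0655) and Ifnar2 did not pass. Of 9 kinases, STATs and regulatory factors, 4 fell and none rose, among them Irf3 (-0.60 ± 0.11, adjusted p = 0.00124) and the myeloid factor Irf8 (-1.48 ± 0.47, adjusted p = 0.0279). Of 11 sensing adaptors and kinases, 3 fell, including Tlr7, a receptor for single-stranded RNA (-2.43 ± 0.69, adjusted p = 0.0171), and its chaperone Unc93b1 (-0.89 ± 0.19, adjusted p = 0.00333).

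Of 13 negative regulators, 1 rose and 1 fell in BH-KO. Rnf125 had 198, 71.0 and 68.7 CPM in BH-KO, against 56.8, 41.3 and 54.0 in BH-WT, and rose with replicate 1 far above the others (1.15 ± 0.33, adjusted p = 0.0205). Ptpn6, the phosphatase SHP-1 of blood cells, fell (-1.04 ± 0.24, adjusted p = 0.00558). Of 16 MHC class I and immunoproteasome genes 6 fell, led by H2-Q7 (-1.44 ± 0.18, adjusted p = 7.18e-05) and the subunit Psmb10 (-0.71 ± 0.17, adjusted p = 0.00677). Counts of the H2 genes and of the guanylate-binding protein genes are uncertain, since both families hold close copies. Of 49 other interferon-stimulated genes, 1 rose and 18 fell, with a median log2 fold change of -0.84. The one that rose was Ly6e (0.87 ± 0.31, adjusted p = 0.0479), and the largest falls were those of Cxcl11 (-2.44 ± 0.60, adjusted p = 0.00760) and Gbp8 (-2.23 ± 0.58, adjusted p = 0.0111).

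Macrophage markers fell beside the members in BH-KO. Of the 13 Kupffer cell and macrophage markers 10 fell (14.3% of all genes), with a median log2 fold change of -2.94. The sum of the 13 was 383, 70.5 and 89.9 CPM in BH-KO, against 313, 1560 and 901 in BH-WT. The defining Kupffer cell gene Clec4f had 21.5, 9.60 and 14.1 CPM in BH-KO, against 32.6, 196 and 113 in BH-WT, and no marker was at 0 in either group. All 7 MHC class II genes fell (14.3% of all genes), among them H2-Ab1 (-2.86 ± 0.67, adjusted p = 0.00768) and H2-Aa (-2.84 ± 0.62, adjusted p = 0.00529). The sum of 10 hepatocyte markers was 46118 to 94561 CPM in BH-KO, against 106854 to 138248 in BH-WT, and that of the cholangiocyte markers 103 to 343 CPM in BH-KO, against 40.0 to 77.3 in BH-WT. The part of these shifts in the members' changes was not tested. In the macrophage and the class II sums BH-KO replicate 1 was the highest of its group and BH-WT replicate 1 the lowest of its own, the libraries that lay closest to each other for Irf7. BH-KO replicate 1 stood apart in other sums too. Its hepatocyte sum was 94561 CPM, against 57069 and 46118 in BH-KO replicates 2 and 3. Its cholangiocyte sum was 103 CPM, against 277 and 343, and its TMM factor 0.881, against 1.26 and 1.30.

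**Figure D5:**
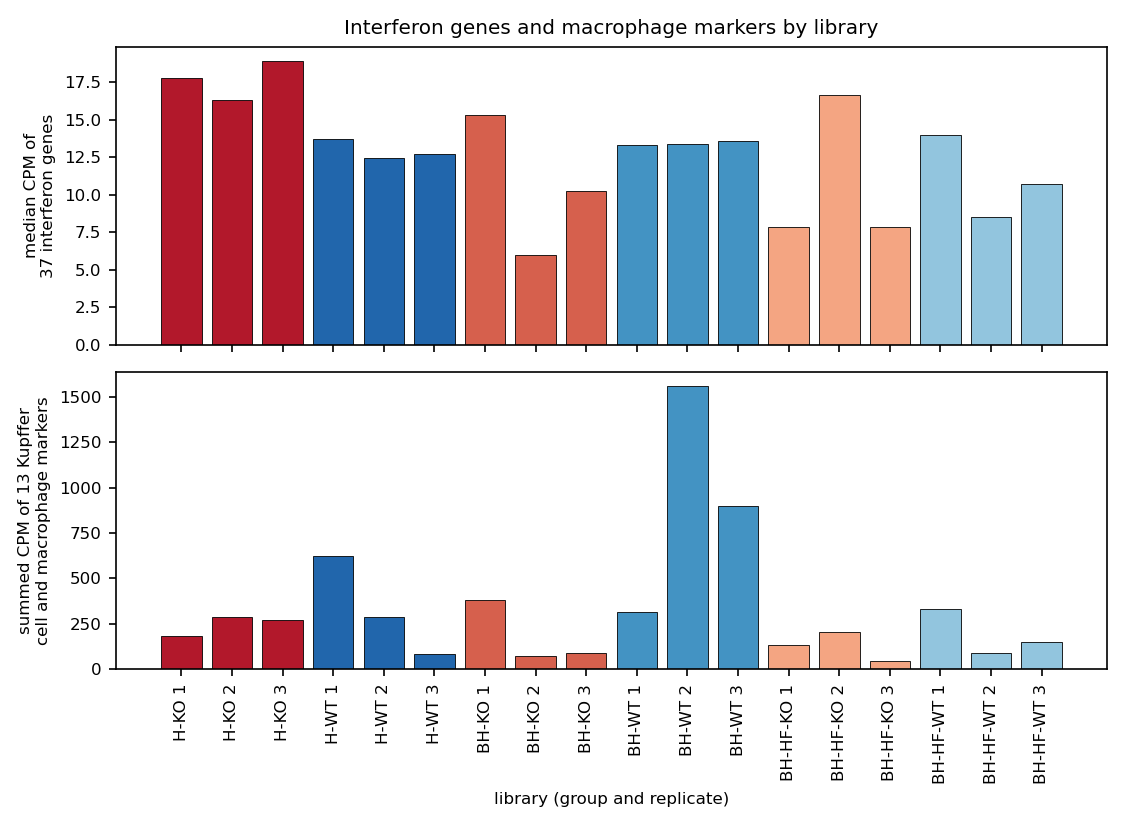
Median CPM of the 37 members (upper bars) and summed CPM of 13 Kupffer cell and macrophage markers (lower bars) in each of the 18 libraries. The library with the highest marker sum also has the highest member median in H-WT, BH-KO, BH-HF-KO and BH-HF-WT, but not in H-KO, where replicate 2 has the highest sum and the lowest median, nor in BH-WT, where replicate 2 has the highest sum and replicate 3 the highest median.

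In the libraries labelled BH-HF-KO, none of the 37 members passed against BH-HF-WT, and none of the 13958 genes did (0%). No member had an unadjusted p under 0.05, as 490 genes (3.51%) did, and DESeq2 and limma-voom called no member either. The median log2 fold change was -0.15. Stat2 was the one member whose groups did not overlap in the higher direction (5.67% of all genes), with 86.9, 105 and 81.4 CPM in BH-HF-KO, against 76.2, 72.4 and 74.7 in BH-HF-WT (0.29 ± 0.16, adjusted p = 1). Irf1 had 32.2, 31.8 and 30.8 CPM in BH-HF-KO, against 28.2, 36.1 and 23.8 in BH-HF-WT. Irf7 averaged 23.7 ± 10.8 CPM in BH-HF-KO, against 26.6 ± 8.85 in BH-HF-WT, and Irf9 39.6 ± 10.4 in BH-HF-KO, against 38.8 ± 2.33 in BH-HF-WT. None of the receptors, adaptors, regulators, class I genes or other response genes passed. The sum of 10 hepatocyte markers was 70596 to 85981 CPM in BH-HF-KO, against 116211 to 136587 in BH-HF-WT. The groups did not overlap in this sum, although none of the 10 genes passed. The sum of the cholangiocyte markers was 23.2 to 54.9 CPM in BH-HF-KO, against 21.6 to 35.3 in BH-HF-WT.

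The spread inside these groups was wide and shared by the members. BH-HF-KO replicate 2 held the highest value of its group for 33 of 37 members and replicate 3 the lowest for 31. In BH-HF-WT, replicate 1 was the highest for 31 and replicate 2 the lowest for 25. These counts were not made over all genes, so a shift of whole libraries cannot be told apart from one of the members. Over genes in general, BH-HF-KO replicates 2 and 3 were also the farthest apart of their group (chi-square per degree of freedom of 73.05, against 46.88 and 17.95). The macrophage marker sum was 133, 206 and 44.7 CPM in the 3 BH-HF-KO libraries, against 329, 88.8 and 152 CPM in the 3 BH-HF-WT libraries, so that in each group the library highest for most members also had the highest marker sum, and the library lowest for most members the lowest. The part of these markers in the members' spread was not tested. Zbp1 showed the spread plainly, at 11.5, 33.0 and 6.58 CPM in BH-HF-KO, against 12.7, 10.5 and 13.2 in BH-HF-WT.

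Across all 18 libraries the deviations of the members from their group means were correlated, with a median Pearson r of 0.49 over 666 gene pairs, 624 of them above 0. These values describe genes measured in the same libraries with the same scaling, and carry no test. Parp14 followed the mean of the other members most closely (r = 0.89), followed by Ifit3b (0.89) and Oas1a (0.88). Irf1 did not follow it (r = -0.09), and Xaf1 did so weakly (0.18). BH-KO replicate 1 was the highest of its group for 24 members and the lowest for 5, among them Irf1. The same counts were not made over all genes.

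Some members differed in their KO effect between the lines. The difference between the KO effects in BH and in H passed for 9 members, all lower in BH (none higher), against 6.06% of all genes tested, 2.3% as lower and 3.76% as higher. None of the 13 macrophage markers passed this contrast, although 7 had an unadjusted p under 0.05 (23.4% of all genes) and their median difference was -2.30. Oas1g showed the largest difference (-3.81 ± 0.995, adjusted p = 0.0349), with a log2 fold change of -1.63 in BH and 2.17 in H. Ifi27l2a (-2.81 ± 0.78, adjusted p = 0.0444), Mx1 (-2.45 ± 0.62, adjusted p = 0.0304), Ifi44 (-2.39 ± 0.65, adjusted p = 0.0397) and Gbp3 (-2.27 ± 0.59, adjusted p = 0.0352) followed. Among the 12 fits with 1 library left out, Ifi44 and Gbp3 passed in that without BH-KO replicate 1 only. Irf1 also differed (-1.18 ± 0.25, adjusted p = 0.0152), at -0.95 in BH and 0.23 in H. Irf7 did not pass (-2.19 ± 0.67, adjusted p = 0.0686), nor did Irf9 or Stat2. Irf1 and Dhx58 passed with each of the 12 libraries left out in turn, while the count ran from 2 (without any 1 of H-KO replicates 1, 2 and 3, H-WT replicates 2 and 3 or BH-WT replicate 3) to 15 (without BH-KO replicate 1). It was 3 without BH-WT replicate 2, 4 without BH-KO replicate 2 or 3 and 5 without H-WT replicate 1.

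The difference between the KO effects in BH-HF and in BH passed for 3 members, against 6.1% of all genes. Cmpk2 was lower in BH-HF (-2.33 ± 0.47, adjusted p = 0.00965), with a log2 fold change of -0.63 in BH-HF and 1.70 in BH, and so was Rsad2 (-1.90 ± 0.51, adjusted p = 0.0387). Irf1 was higher (1.06 ± 0.26, adjusted p = 0.0252). Irf7, Irf9 and Stat2 did not pass. Cmpk2 passed with each library left out in turn. Without BH-KO replicate 1 the count was 10, 8 as higher and 2 as lower, and it was 1 without BH-KO replicate 3, BH-WT replicate 3 or BH-HF-KO replicate 1. Cmpk2, Rsad2 and Irf1 had passed in BH, with log2 fold changes of 1.70, 1.21 and -0.95. None of them passed in BH-HF, at -0.63, -0.69 and 0.10 in the same order. The BH-HF effects come from the libraries labelled BH-HF-KO, whose Arntl level was not that of BH-KO.

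Set directly against H-KO, BH-KO had 16 members lower and none higher, against 16.4% of all genes called, 6.3% as lower and 10.1% as higher. These libraries are the same ones used above, so the comparison is not a second measurement. Oas1g (-2.68 ± 0.69, adjusted p = 0.0158), Mx1 (-2.35 ± 0.43, adjusted p = 0.00194), Oas1a (-2.13 ± 0.57, adjusted p = 0.0188), Ifi27l2a (-2.07 ± 0.56, adjusted p = 0.0202) and Dhx58 (-1.95 ± 0.29, adjusted p = 0.000441) showed the largest falls. Irf1 and Irf7 fell as well (adjusted p = 0.00876 and 0.0404), and Irf9 and Stat2 did not pass. Mx1, Dhx58, Ifi44, Usp18, Xaf1 and Irf1 passed with each of the 6 libraries left out in turn. None of the 13 macrophage markers passed here, and none had an unadjusted p under 0.05 (31.4% of all genes). Their sum was 383, 70.5 and 89.9 CPM in BH-KO, against 184, 290 and 272 in H-KO. With BH-KO replicate 1 above every H-KO library and replicates 2 and 3 below, this test cannot decide whether the markers differed. Their part in the members' falls was not tested. The count was 7 without H-KO replicate 3 or BH-KO replicate 2, 9 without H-KO replicate 2, 10 without BH-KO replicate 3 and 20 without BH-KO replicate 1.

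Between the WT groups of the lines, BH-WT and H-WT, no member passed, against 0.165% of all genes (0.0573% as higher). Of the members 2 had an unadjusted p under 0.05 (9.32% of all genes), and DESeq2 and limma-voom called none. The BH-WT libraries lay wholly above the H-WT libraries for 6 members (7.62% of all genes) and wholly below for 2 (7.09%). Irf7 averaged 47.1 ± 11.9 CPM in BH-WT and 30.6 ± 11.6 in H-WT, and Irf1 49.0 ± 5.65 in BH-WT and 37 ± 6.96 in H-WT. Irf9 averaged 35.9 ± 5.56 CPM in BH-WT and 37.4 ± 1.89 in H-WT, and Stat2 68.9 ± 15.2 in BH-WT and 75.0 ± 9.01 in H-WT.

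BH-HF-WT, older and fed a high-fat diet, had 3 members lower than BH-WT and none higher, against 7% of all genes called, 4.21% as lower and 2.79% as higher. Gbp3 had 7.70, 4.50 and 3.15 CPM in BH-HF-WT, against 18.4, 22.9 and 19.8 in BH-WT (-1.99 ± 0.44, adjusted p = 0.0175). Oasl2 had 5.52, 2.87 and 2.43 CPM in BH-HF-WT, against 7.16, 13.7 and 10.1 in BH-WT (-1.51 ± 0.42, adjusted p = 0.0405). Irf1 had 28.2, 36.1 and 23.8 CPM in BH-HF-WT, against 43.8, 48.2 and 55.0 in BH-WT (-0.74 ± 0.18, adjusted p = 0.0263). The groups did not overlap for any of these genes. Irf7, Irf9 and Stat2 did not pass. The count was 0 without BH-WT replicate 2 or BH-HF-WT replicate 3, 1 without BH-HF-WT replicate 2 and 5 without BH-WT replicate 1. MHC class II genes fell in the same comparison, 6 of 7 tested, with a sum of 63.7 to 73.6 CPM in BH-HF-WT, against 145 to 728 in BH-WT. Of the 13 macrophage markers 2 fell (sum 88.8 to 329 CPM in BH-HF-WT, against 313 to 1560 in BH-WT). The part of both in the members' falls was not tested. Age and diet differ together between these groups and cannot be told apart.

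Over the 6 groups, H-KO had the highest mean for 17 of the 37 members and BH-KO the lowest for 17. The same counts were not made over all genes, so they do not set the members apart from other genes. Usp18 had its highest mean in H-KO at 50.7 ± 2.16 CPM, followed by BH-KO at 18.8 ± 5.06, and then H-WT at 13.1 ± 1.30, BH-WT at 12.7 ± 1.19, BH-HF-KO at 8.70 ± 4.41 and BH-HF-WT at 7.97 ± 3.05. The H-KO libraries lay wholly above those of BH-KO, while each later pair of neighbours in this order overlapped. Irf9 ran from 33.9 ± 8.28 CPM in BH-KO to 39.6 ± 10.4 in BH-HF-KO, a range within the spread of single groups.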

How the data were processed

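The values the authors deposited are whole-number read counts, a row for each gene and a column for each library, with no normalization. Of the sample columns, 0 went unused. Reads were aligned with STAR 2.6 to mm10, per the submitters' processing notes. The counter, its annotation and its treatment of strand and of reads matching several places are not stated in any label or header used here, so counts of close paralogs and of overlapping genes are uncertain.

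Groups came from the labels alone. Counts were filtered with edgeR's filterByExpr (minimum count 10), which kept 13958 genes, scaled by TMM factors (0.83 to 1.38), and fitted with 1 mean per group over all 18 libraries (12 residual degrees of freedom). Contrasts were tested with the two-sided robust quasi-likelihood F-test in edgeR 4.0.16 (R 4.3.3), adjusted by Benjamini-Hochberg over all genes tested. The threshold was an adjusted p of 0.05. P-values measure the spread between the biological replicates, estimated over all 6 groups. A count of 0 allows up to 3 counts, 0.306 to 0.438 CPM of a plain library total, counting error only. Log2 fold changes are given ± SE and CPM as mean ± SD (n = 3).

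The members and the lists of pathway and marker genes were chosen with earlier results of these data known. Members named with full values are those that passed, up to the 8 largest rises and 8 largest falls in a KO comparison or 5 in the others, and Irf1, Irf7, Irf9 and Stat2. Ifih1 in H-KO, Tap1, Parp14, Igtp and Ddx58 in BH-KO, the members that did not pass, and Clec4f were named beyond this rule after their values were seen. Of each pathway list, up to 2 rises and 2 falls that passed are named, and the receptors in any case. Coordinates and exon lengths came from GENCODE M21, promoters from RefSeq (GRCm38.p6).

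Alternatives were DESeq2 size factors, upper-quartile factors, no filter, a stricter filter (1 CPM in 3 libraries), DESeq2 1.42.0, limma-voom (limma 3.58.1), the compared groups alone, a replicate block, a 2-fold and a 0.01 threshold, and each library left out. Leaving out BH-KO replicate 1 and H-WT replicate 3 together was added after the data were seen.
1 gene of the pathway lists is not reported here.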

Additional observations from a re-analysis of the deposited data

Results flagged for a closer look

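For 12 results the test of the difference between KO effects passed (edgeR's quasi-likelihood test, adjusted p under 0.05). In 9 genes the log2 fold change of KO over WT was lower in BH than in H. The difference was -1.81 for Dhx58 (SE 0.408, adjusted p = 0.0183), -1.18 for Irf1 (SE 0.254, adjusted p = 0.0152), -3.81 for Oas1g (SE 0.995, adjusted p = 0.0349), -2.16 for Oasl2 (SE 0.563, adjusted p = 0.0347) and -2.45 for Mx1 (SE 0.618, adjusted p = 0.0304). It was -2.39 for Ifi44 (SE 0.648, adjusted p = 0.0397), -2.81 for Ifi27l2a (SE 0.780, adjusted p = 0.0444), -2.18 for Gbp2 (SE 0.587, adjusted p = 0.0406) and -2.27 for Gbp3 (SE 0.591, adjusted p = 0.0352). Among 12 fits with 1 library left out, Ifi44, Gbp2 and Gbp3 passed in that without BH-KO replicate 1 only, while Dhx58 and Irf1 passed in each. Gbp2 passed in neither line taken alone, with a log2 fold change of -1.14 in BH and 1.05 in H.

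Between BH-HF and BH, the KO effect was higher in BH-HF for Irf1 (1.06, SE 0.256, adjusted p = 0.0252) and lower for Rsad2 (-1.90, SE 0.507, adjusted p = 0.0387) and Cmpk2 (-2.33, SE 0.467, adjusted p = 0.00965). These 3 genes passed in BH and not in BH-HF. The BH-HF side of each difference comes from libraries labelled BH-HF-KO, which lacked the Arntl level of BH-KO.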

How the results depend on the processing

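Of 1545 recomputed values of 104 named results, 1266 kept their direction and side of the threshold, 243 lost and 15 gained a pass, and 21 changed sign, none of a gene that passed. With upper-quartile scaling the sign changed for Stat2 in BH-KO (0.0587); with limma-voom it did for Irf9 in BH-HF-KO (-0.0044). With 1 library left out, Irf9 ranged from -0.0125 to 0.0682 in H-KO, -0.277 to 0.0763 in BH-KO, -0.200 to 0.178 for BH-HF-KO, -0.298 to 0.0527 for BH minus H, -0.112 to 0.306 for BH-HF minus BH, -0.168 to 0.0548 for BH-WT against H-WT and -0.000789 to 0.222 for BH-HF-WT against BH-WT. Stat2 ranged from -0.133 to 0.172 in BH-KO. Ifnar2 ranged from -0.297 to 0.0691 in BH-KO and -0.0134 to 0.267 for BH-HF-KO. Irf1 ranged from -0.0244 to 0.281 and Irf7 from -0.603 to 0.055 in BH-HF-KO.

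The cause of each move below was not tested. Some alternatives use fewer libraries or a stricter threshold. The fit of the compared groups alone also takes its filter, scaling and spread from those groups only. Members called in H-KO numbered 18 with the compared groups alone, 7 at 2-fold and 4 at an adjusted p under 0.01. In BH-KO they numbered 2, 7 and 2 in the same order, with 1096 genes called in all with the compared groups alone. For the BH minus H difference, members numbered 5 (516 genes in all) with no filter, 14 (1394) with DESeq2 and 0 at 0.01, with 498 genes for the groups alone. For the BH-HF minus BH difference, 1315 genes were called with DESeq2, 1 member and 431 genes with the groups alone, and 1 member at 0.01. BH-KO against H-KO gave 6 members and 919 genes with the groups alone and 6 members at 0.01. BH-WT against H-WT gave 35 genes with no filter, 101 with DESeq2 and 12 with limma-voom. BH-HF-WT against BH-WT gave 1 member with no filter, 0 at 0.01, and 1495 genes with DESeq2.

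Leaving out both BH-KO replicate 1 and H-WT replicate 3 was chosen after seeing the data. It gave 10 members in H-KO, 12 for BH minus H and 9 for BH-HF minus BH. Genes in all numbered 6198 for BH-KO, 3327 for BH-HF minus BH and 62 for BH-WT against H-WT. For BH-KO against H-KO it gave 20 members and 2414 genes.

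With 1 library left out, members called ranged from 5 to 10 in H-KO (all genes 3787 to 4284), 3 to 21 in BH-KO (2330 to 5916), 0 to 0 in BH-HF-KO (0 to 1), 2 to 15 for BH minus H (344 to 1247), 1 to 10 for BH-HF minus BH (353 to 3046), 0 to 0 for BH-WT against H-WT (7 to 18), 7 to 20 for BH-KO against H-KO (1191 to 2339) and 0 to 5 for BH-HF-WT against BH-WT (225 to 1014).

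Replicate numbers did not pair the samples: the correlation of same-numbered KO and WT deviations ran from -0.18 to 0.04. With the replicate number as a block, 5 members passed in BH-KO, 1 for BH minus H (286 genes in all), 1 for BH-HF minus BH (492 genes), and 14 genes for BH-WT against H-WT. Members with few counts, such as Oas3 and Oas1g, are limited by depth.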
